A study of Mus musculus with 6 samples.

Results

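Iron enters a cell, is reduced, stored and released by a small set of proteins, and 10 genes of that set are described here in mouse lung fibroblasts with and without recombinant DKK1, a secreted inhibitor of Wnt signalling that binds the co-receptors LRP5 and LRP6. They are the importers Tfrc, Slc11a2 and Slc39a14, the STEAP family genes Steap1, Steap2, Steap3 and Steap4, the ferritin subunit genes Fth1 and Ftl1, and the exporter gene Slc40a1. The 10 were chosen by their roles, from a table of 45706 genes, with the DKK1 against control comparison of these same libraries already known. Their differences between the groups are therefore given as a description. Whether each was called in the test across all genes is stated, but that call is no independent evidence about genes chosen this way, and nothing is read from how many were called. Each of the 10 matched 1 gene identifier and passed the filter on low counts.

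The libraries came from wildtype fibroblasts grown out of enzyme-digested mouse lungs in medium with serum, to find genes that respond to DKK1 in culture. The control group had 3 samples with no treatment named beyond the word control, and the DKK1 group had 3 samples given recombinant mouse DKK1 at 30 ng/ml for 24 h. The labels give no strain, age or sex, and do not say whether samples of a group came from different animals or cultures, so p-values measure the spread between these samples, which may be technical. The controls are not stated to have received a vehicle. RNA was measured in bulk, and fewer cells of a type and less RNA per cell cannot be told apart.

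Transferrin-bound iron is taken up by the transferrin receptor, freed in endosomes, reduced by STEAP metalloreductases and moved to the cytosol by divalent metal transporters. Iron that is not bound to transferrin can enter through ZIP family transporters. Ferritin, a shell of heavy and light chains, stores iron, and ferroportin is the known exporter. The iron regulatory proteins bind stem-loops called iron-responsive elements when iron is scarce: in a 5′ untranslated region this blocks translation of ferritin or ferroportin, and in the 3′ untranslated region of the transferrin receptor it protects the mRNA from decay. Steap4 is also known as a gene that inflammatory cytokines induce in adipocytes and other cells.

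The stem-loops are shown because they are the regulatory sequences that link the transferrin receptor, ferritin and ferroportin genes to cellular iron. The search took the transcripts listed in the deposited table from GENCODE M21 (GRCm38) and looked on the transcript strand for a C, 5 bases, CAGTGN with A, C or T as its last base, and 5 bases of which all 5 pair with the first 5, G-T pairs allowed. Each sequence below runs 5′ to 3′ over 29 bases with T for U, and the 6 bases of the loop are in capitals. Those of Fth1, Ftl1 and Slc40a1 lie in 5′ untranslated regions and those of Tfrc in its 3′ untranslated region.
Fth1, chr19:9982732-9982760, plus strand: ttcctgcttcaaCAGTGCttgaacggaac
Ftl1, chr7:45459779-45459807, minus strand: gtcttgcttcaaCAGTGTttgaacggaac
Slc40a1, chr1:45925465-45925493, minus strand: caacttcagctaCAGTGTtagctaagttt
Tfrc, chr16:32631219-32631247, plus strand: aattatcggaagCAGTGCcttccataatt
Tfrc, chr16:32631598-32631626, plus strand: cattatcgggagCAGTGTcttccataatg
Tfrc, chr16:32631663-32631691, plus strand: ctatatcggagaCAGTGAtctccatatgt
Tfrc, chr16:32631710-32631738, plus strand: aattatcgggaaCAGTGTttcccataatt

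The Fth1 and Ftl1 elements were identical at 26 of 29 positions. Pairs of the Tfrc elements were identical at 18 to 25 positions. Of 22189 coding genes searched, 21 (0.095%) held a match in a 5′ untranslated region and 99 (0.446%) in a 3′ untranslated region, and 4 of the 10 genes described here held one in either. A match is a description of letters, and the transcripts of the other 6 genes held none in an untranslated region under this strict pattern. The pattern required all 5 pairs, so elements with an unpaired base there would be missed. For these 6 genes, Slc11a2 among them, no match does not mean no element. Protein and iron levels were not measured, so translation through these elements is outside these data.

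The libraries held 22565917 to 34727102 expected counts, and 3 counts, the smallest number read as signal, corresponded to 0.0864 to 0.133 CPM, the count per 1000000 counts of the library. Of 14635 genes tested, 131 (0.895%) were called between the groups at an adjusted p under 0.05, of which 102 (0.697%) were higher with DKK1. With the replicate number of the titles as a block, 726 (4.96%) were called higher and 653 (4.46%) lower. Summed CPM of 8 fibroblast markers, Col1a1 and Col3a1 among them, was 10982 to 12037 in libraries 1 and 2 and 9946 to 10560 in libraries 3 of both groups. None of the 8 was called between the groups without the block; with it Dcn (0.62) and Pdgfra (0.27) were called higher and Col1a1 (−0.10), Col1a2 (−0.13) and Pdgfrb (−0.11) lower on the log2 scale. Genes that mark other lung cells were also detected and are given below beside the results they move with.

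Per transcript length, the control levels of the 10 genes covered the range from nearly the lowest to nearly the highest of all tested genes. On a scale like TPM, in which counts are divided by mean transcript length and each library is scaled to a sum of 1000000, Ftl1, the ferritin light chain, stood at 4368 ± 192 (SD, n = 3), at the 99.93rd percentile of tested genes. Fth1, the ferroxidase-bearing heavy chain, followed at 1689 ± 178. Slc39a14 stood at 120 ± 3.14, Tfrc at 105 ± 1.43 and Steap2 at 73.9 ± 1.496. Slc11a2 (55.8 ± 1.63) and Steap1 (55.1 ± 1.33) were next, with ranges over the samples that overlapped. Slc40a1 (6.78 ± 2.68) and Steap3 (4.62 ± 1.04) overlapped as well. Steap4 was last at 0.283 ± 0.0916, at the 2.325th percentile. Scaled by the longest transcript of each gene instead, 6 of the 10 changed rank and Steap1 moved to rank 3, while both ferritins stayed at the top and Steap4 at the bottom.

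**Figure D1:**
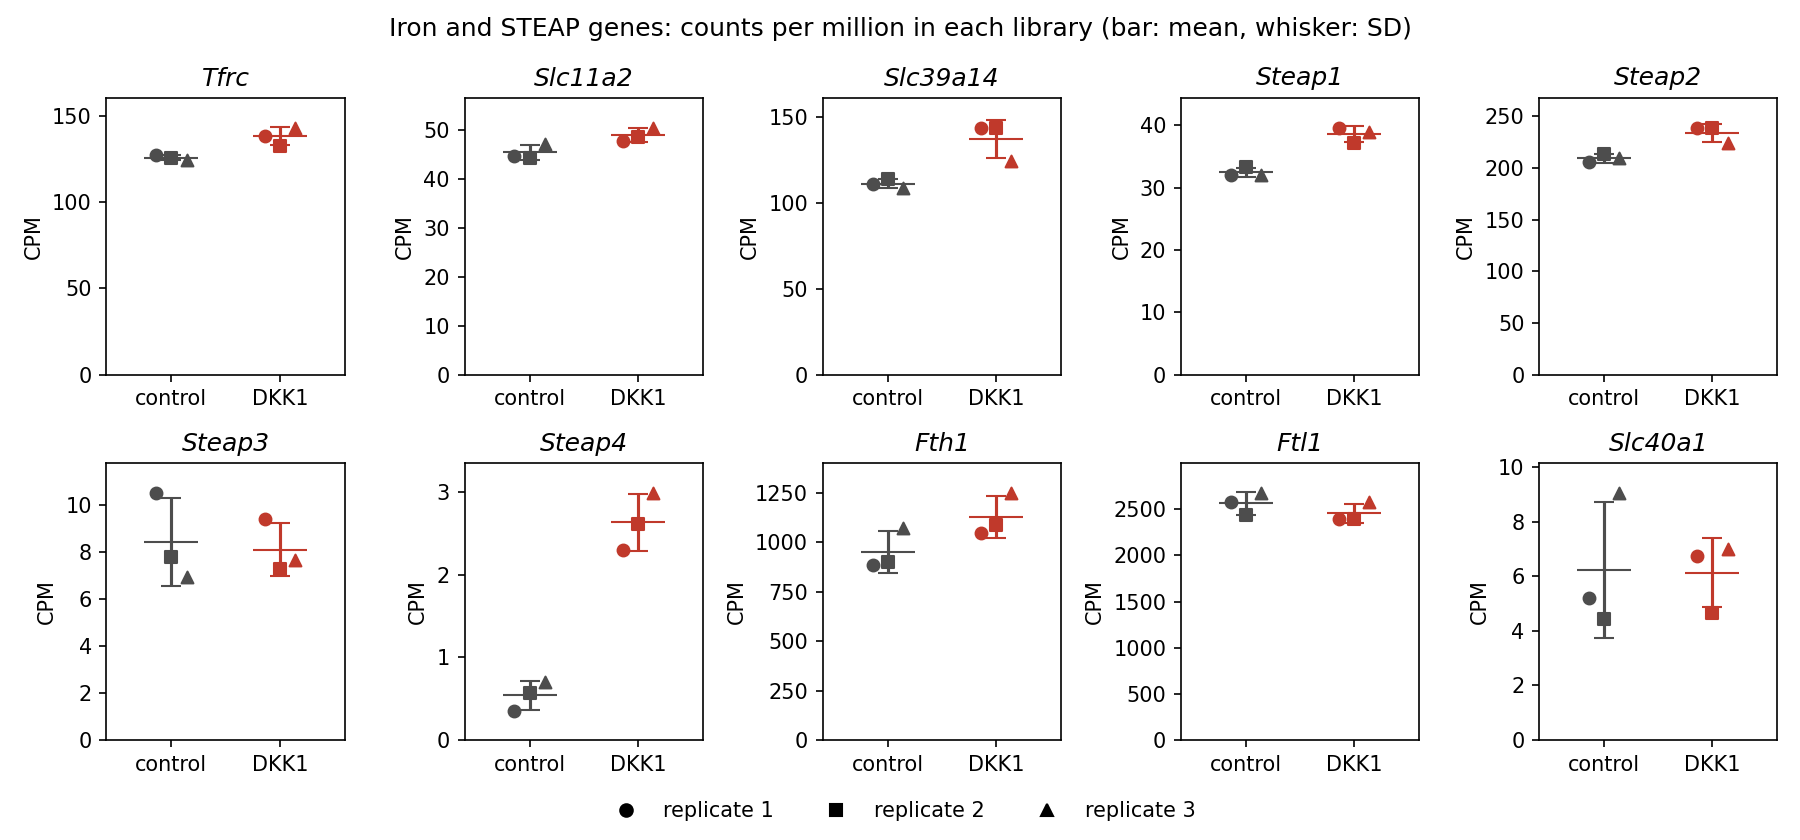
CPM of each of the 10 genes in the 3 control (grey) and 3 DKK1 (red) libraries, with marker shapes for replicate numbers, a bar for the mean and a whisker for the SD. Every axis starts at 0, and the groups lie apart for Steap4, Steap1, Steap2, Slc39a14, Slc11a2 and Tfrc.

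In this contrast, which informed the choice of the genes, 1 of the 10 was called higher and 0 lower without the block (0.697% of all tested genes were called higher). With the block, 6 were called higher (4.96% of all tested genes) and 1 lower (4.46%). In 6 of the 10 all DKK1 libraries lay above all control libraries, against 1375 (9.40%) of all tested genes. In 0 of them all DKK1 libraries lay below, against 1045 (7.14%).

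Among the importers, Slc39a14 differed most between the groups. The gene (ENSMUSG00000022094, chr14:70303469-70351425, minus strand, GRCm38) encodes ZIP14, a membrane transporter of zinc, manganese and iron not bound to transferrin. Its level was 111, 114 and 109 CPM in control libraries 1, 2 and 3 and 144, 143 and 124 CPM in DKK1 libraries 1, 2 and 3. The groups did not overlap, and DKK1 library 3 was the lowest of its group. The mean went from 111 ± 2.55 to 137 ± 11.2 CPM (SD, n = 3), a log2 fold change of 0.30 ± 0.06 (SE). It was called with the block (0.30 ± 0.03) and not in the unblocked edgeR fit of all 6 libraries. Other fits without the block also called it: with no filter on low counts (0.30), with DESeq2 (0.30), without DKK1 replicate 3 (0.37) and without replicate 3 of both groups (0.35).

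Tfrc (ENSMUSG00000022797, chr16:32608920-32632794, plus strand) encodes the transferrin receptor. Its level was 127, 126 and 125 CPM in the controls and 138, 133 and 143 CPM with DKK1. The controls lay within a narrow band and every DKK1 library lay above it, by a log2 fold change of 0.13 ± 0.04 (SE). It was called with the block (0.13 ± 0.03) and not without it. Slc11a2 (ENSMUSG00000023030, chr15:100387898-100425072, minus strand) encodes DMT1, which carries ferrous iron across the endosomal membrane. Its level was 44.8, 44.4 and 47.1 CPM in the controls and 47.8, 48.5 and 50.5 CPM with DKK1. The lowest DKK1 library lay just above the highest control, and the means were 45.4 ± 1.51 and 48.9 ± 1.40 CPM (SD, n = 3). The log2 fold change was 0.10 ± 0.04, and the gene was called neither without nor with the block. Slc11a2 overlaps Gm5475, which lies on the other strand; whether counting used strand is not given in the sources used here, so its values are uncertain to that extent.

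Of the STEAP genes, which encode membrane proteins that reduce ferric iron or cupric copper in the family members known to act as reductases, Steap4 (ENSMUSG00000012428, chr5:7960457-7982213, plus strand) was by far the one with the widest gap. Its counts were 8, 16 and 16 in control libraries 1, 2 and 3 and 66, 91 and 69 in the DKK1 libraries. These are levels of 0.355, 0.566 and 0.706 CPM against 2.30, 2.62 and 2.99 CPM. The lowest DKK1 library stood well above the highest control library. The mean went from 0.542 ± 0.177 to 2.64 ± 0.345 CPM (SD, n = 3), a log2 fold change of 2.26 ± 0.27 (SE), or 4.79-fold. Within replicate numbers 1, 2 and 3 the log2 ratio of CPM was 2.70, 2.21 and 2.08. Steap4 was called without and with the block, but not when control replicate 2 was left out (log2 fold change 2.30). The gene remained among the lowest of the 10 in level: per length it was last of them in the DKK1 group too.

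The 250 bases before the RefSeq start of Steap4 (GRCm38.p6, plus strand) are printed because this gene had the widest difference of the 10. Capitals mark matches, on either strand, to 3 motifs: NF-kB (GGG and CC with 5 bases between them), STAT (TTCNNNGAA) and C/EBP (TTNNGCAA).
Steap4, chr5:7960222-7960471: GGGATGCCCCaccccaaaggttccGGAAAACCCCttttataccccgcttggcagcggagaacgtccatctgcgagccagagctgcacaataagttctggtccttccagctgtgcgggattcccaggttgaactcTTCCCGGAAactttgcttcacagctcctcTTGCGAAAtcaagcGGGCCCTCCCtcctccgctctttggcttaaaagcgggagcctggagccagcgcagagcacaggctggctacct

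The window held 3 NF-kB matches, 1 STAT match and 1 C/EBP match. Of 32851 promoter windows of the same length, 45.8% held the NF-kB letters, 7.0% the STAT letters and 9.6% the C/EBP letters. The AP-1 letters (TGANTCA) were not in this window and were in 6.7% of all. Windows of other genes described here also held matches. NF-kB letters were in windows of Steap1, Steap2, Steap3, Tfrc, Fth1 and Ftl1, C/EBP letters in windows of Steap3 and Fth1, and STAT letters in a window of Steap2. Binding was not measured.

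Steap1 (ENSMUSG00000015652, chr5:5736317-5749326, minus strand) encodes a family member that lacks the reductase domain of its relatives. Its level was 32.04, 33.3 and 32.05 CPM in the controls and 39.6, 37.1 and 38.9 CPM with DKK1. The groups were apart, with a log2 fold change of 0.24 ± 0.05 (SE). Steap2 (ENSMUSG00000015653, chr5:5664829-5694578, minus strand), its neighbour on the chromosome and a metalloreductase, was at 205, 214 and 209 CPM in the controls and 238, 239 and 224 CPM with DKK1. These groups were also apart, and the log2 fold change was 0.15 ± 0.04. Both genes were called with the block (0.24 ± 0.05 for Steap1 and 0.15 ± 0.03 for Steap2) and not in the unblocked fit. Steap1 was also called without the block when no filter on low counts was used (0.24). Steap3 (ENSMUSG00000026389, chr1:120190757-120272705, minus strand), the endosomal ferrireductase of red cell precursors, was at 10.5, 7.78 and 6.93 CPM in the controls and 9.39, 7.26 and 7.63 CPM with DKK1. Its groups overlapped and its log2 fold change of −0.06 ± 0.17 was smaller than its error. With 1 library left out, the Steap3 value ran from −0.18 (without control replicate 3 or DKK1 replicate 1) to 0.13 (without control replicate 1), and it was 0.02 without DKK1 replicate 2.

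The 2 ferritin chains, which assemble into 1 storage shell, differed in sign. Fth1 (ENSMUSG00000024661, chr19:9980598-9985098, plus strand) was at 884, 899 and 1072 CPM in the controls and 1049, 1087 and 1251 CPM with DKK1. The groups overlapped, because control library 3 lay above DKK1 library 1, yet within replicate numbers 1, 2 and 3 the log2 ratios were 0.25, 0.27 and 0.22. The log2 fold change was 0.24 ± 0.08 (SE) without the block and 0.24 ± 0.02 with it, and Fth1 was called only in the latter, or when replicate 3 of both groups was left out (0.25). Ftl1 (ENSMUSG00000050708, chr7:45457944-45459884, minus strand) was at 2576, 2438 and 2678 CPM in the controls and 2395, 2393 and 2577 CPM with DKK1. Its groups overlapped, and its log2 fold change was −0.07 ± 0.04 without the block and −0.07 ± 0.02 with it, where it was called lower. Without control replicate 3 the unblocked Ftl1 value was −0.04. The ratio of Fth1 to Ftl1 counts was 0.343, 0.369 and 0.400 in the controls and 0.438, 0.454 and 0.485 with DKK1, so that every DKK1 library had a higher heavy-to-light ratio than any control.

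Ferritin genes have processed copies that can share reads. Copies were looked for by symbols that begin with Fth or Ftl, so copies under other names were not searched. The other genes with Fth symbols, most of them of the Fthl17 family, held at most 2 expected counts in any library. Other Ftl1 copies held 364 to 531 counts, from 0.580% to 0.642% of the reads of that family. Both genes had counts that were not whole in 5 libraries, so some of their reads were divided with other features. The counts of the other genes with Fth symbols were whole, and which features shared the reads of Fth1 was not traced. Ftl1 also overlaps Gm22133 on its own strand and Gm10252 on the other.

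Slc40a1 (ENSMUSG00000025993, chr1:45908068-45926523, minus strand) encodes ferroportin. Its level was 5.18, 4.42 and 9.05 CPM in the controls and 6.73, 4.66 and 6.98 CPM with DKK1. Control library 3 was the highest of all 6 and the groups overlapped. The log2 fold change was −0.03 ± 0.27 (SE), and 0.01 ± 0.13 with the block. With 1 library left out the value ran from −0.23 (without control replicate 2) to 0.33 (without control replicate 3), above 0 also without DKK1 replicate 2 (0.14) and below 0 when any other single library was left out. Leaving out replicate 3 of both groups gave 0.24. No direction can be given for this gene.

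**Figure D2:**
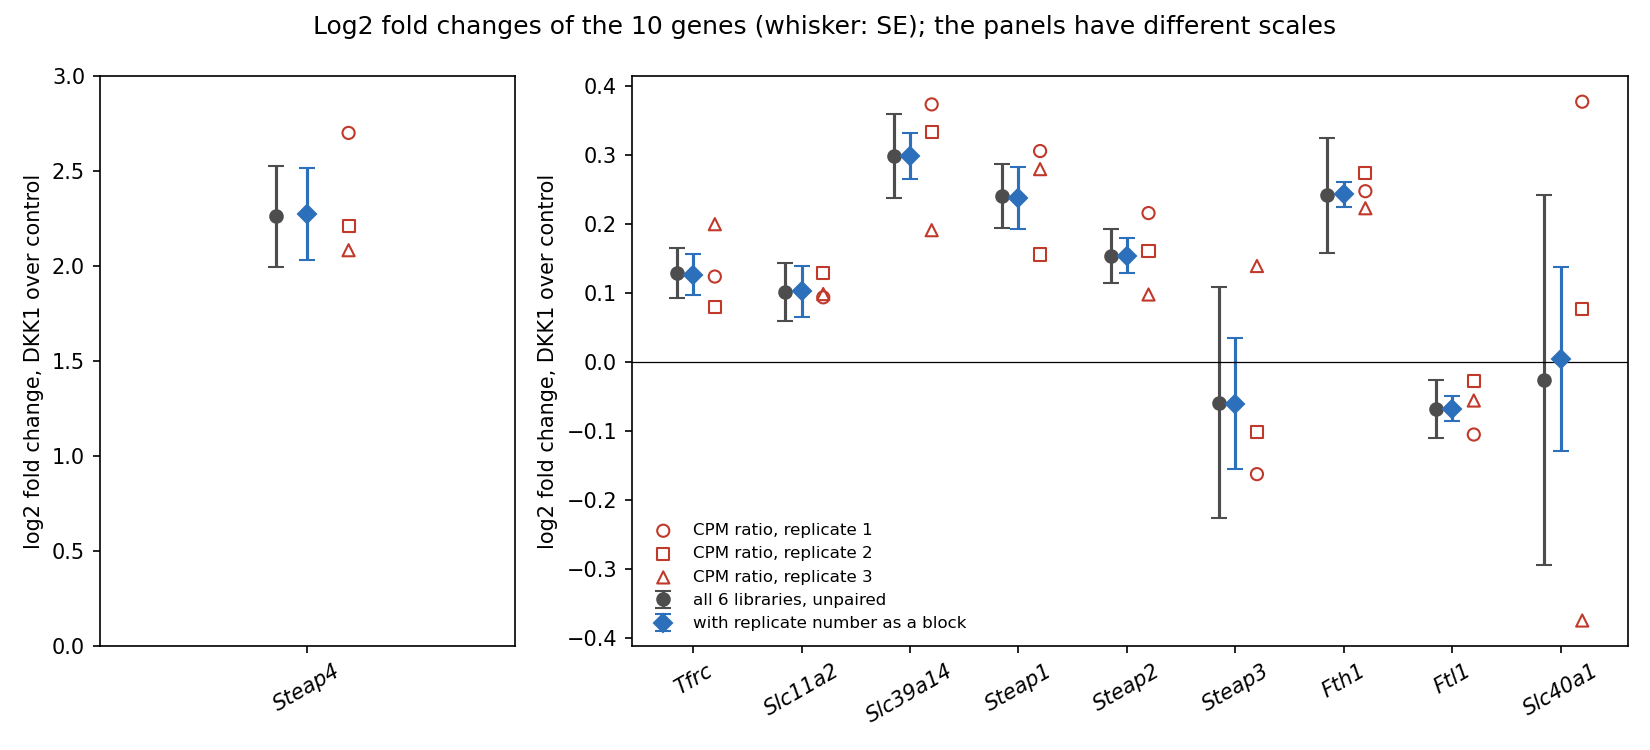
Log2 fold changes, DKK1 over control, of the 10 genes from the fit of all 6 libraries (grey circles) and the fit with the replicate number as a block (blue diamonds), whiskers showing the SE, with the log2 CPM ratio within each replicate number in red. Steap4 has a panel of its own scale at 2.26; Slc40a1 and Steap3 have ratios on both sides of 0.

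How far the genes differed from one replicate number to another is a separate contrast, which did not enter their choice. What the numbers stand for is not in the labels. In edgeR's quasi-likelihood test with the group in the model, 1889 genes (12.9%) were called between replicate numbers, and 5 of the 10 genes were among them. Fth1 was higher in replicate 3 than in replicate 1 by 0.26 on the log2 scale (adjusted p = 7.81e-06), with library 3 the highest of its group in both groups. Ftl1 was higher by 0.07 (adjusted p = 0.0115), also with library 3 highest in both. Slc40a1 was higher by 0.41 in replicate 3 and differed by −0.40 in replicate 2 (adjusted p = 0.0133), and library 2 was the lowest of each group. Steap3 differed by −0.45 in replicate 3 and −0.40 in replicate 2 (adjusted p = 0.0300), and library 1 was the highest in both groups. Slc39a14 differed by −0.13 in replicate 3 (adjusted p = 0.0452), with library 3 lowest in both groups. That last call was lost when libraries were scaled by their totals (adjusted p = 0.0694).

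The other genes were not called between replicate numbers: Slc11a2 (adjusted p = 0.538), Tfrc (adjusted p = 0.694), Steap1 (adjusted p = 0.941), Steap2 (adjusted p = 0.282) and Steap4 (adjusted p = 0.473). Steap4 rests on as few as 8 counts in a library, which limits what this test could detect.

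Markers of other cell types differed between replicate numbers as well. The summed CPM of 10 macrophage and leukocyte markers was 426 to 527 in libraries 1 and 2 and 851 to 910 in libraries 3, and 9 of the 10 were called. Epithelial markers (8 genes) summed to 38.0 to 47.4 CPM in libraries 1 and 2 and to 126 in both libraries 3. Endothelial markers (5 genes) summed to 18.9 to 25.96 against 58.2 to 59.2, and mesothelial markers (4 genes) to 9.73 to 10.9 against 28.1 to 31.6. Erythroid markers (6 genes, 2 of them tested) summed to 0.798 to 1.82 CPM in the controls and 1.08 to 8.93 with DKK1. No marker of these lists was at 0 in all libraries. Their part in the values of Fth1, Ftl1, Slc40a1, Steap3 and Slc39a14 was not tested. Between the groups, the macrophage and leukocyte sum was 426 to 851 CPM in the controls and 486 to 910 with DKK1. For replicate numbers 1, 2 and 3 it was 426, 493 and 851 CPM in the controls and 486, 527 and 910 CPM with DKK1, higher with DKK1 within each number. Within that list the markers went different ways, and 1 was called without the block: Cd14, a co-receptor for bacterial lipopolysaccharide, rose by 0.85 on the log2 scale (adjusted p = 0.00280), from 9.31, 9.09 and 9.54 CPM to 17.8, 15.5 and 17.3 CPM. With the block, 4 of the 10 were called higher and 2 lower. Marco, a macrophage scavenger receptor, was at 3.86, 4.74 and 10.6 CPM in the controls and 16.5, 14.5 and 29.3 CPM with DKK1, a log2 fold change of 1.67 ± 0.10 with the block. Itgam, an integrin chain of myeloid cells, went with 1.07 ± 0.06, and Adgre1 with 0.54 ± 0.09. The groups lay apart for Marco, Itgam and Cd14. Mrc1 (−0.45 ± 0.06) and Csf1r (−0.25 ± 0.07) were called lower with the block. The part of such cells in the DKK1 differences of Steap4 or the other genes was not tested.

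**Figure D3:**
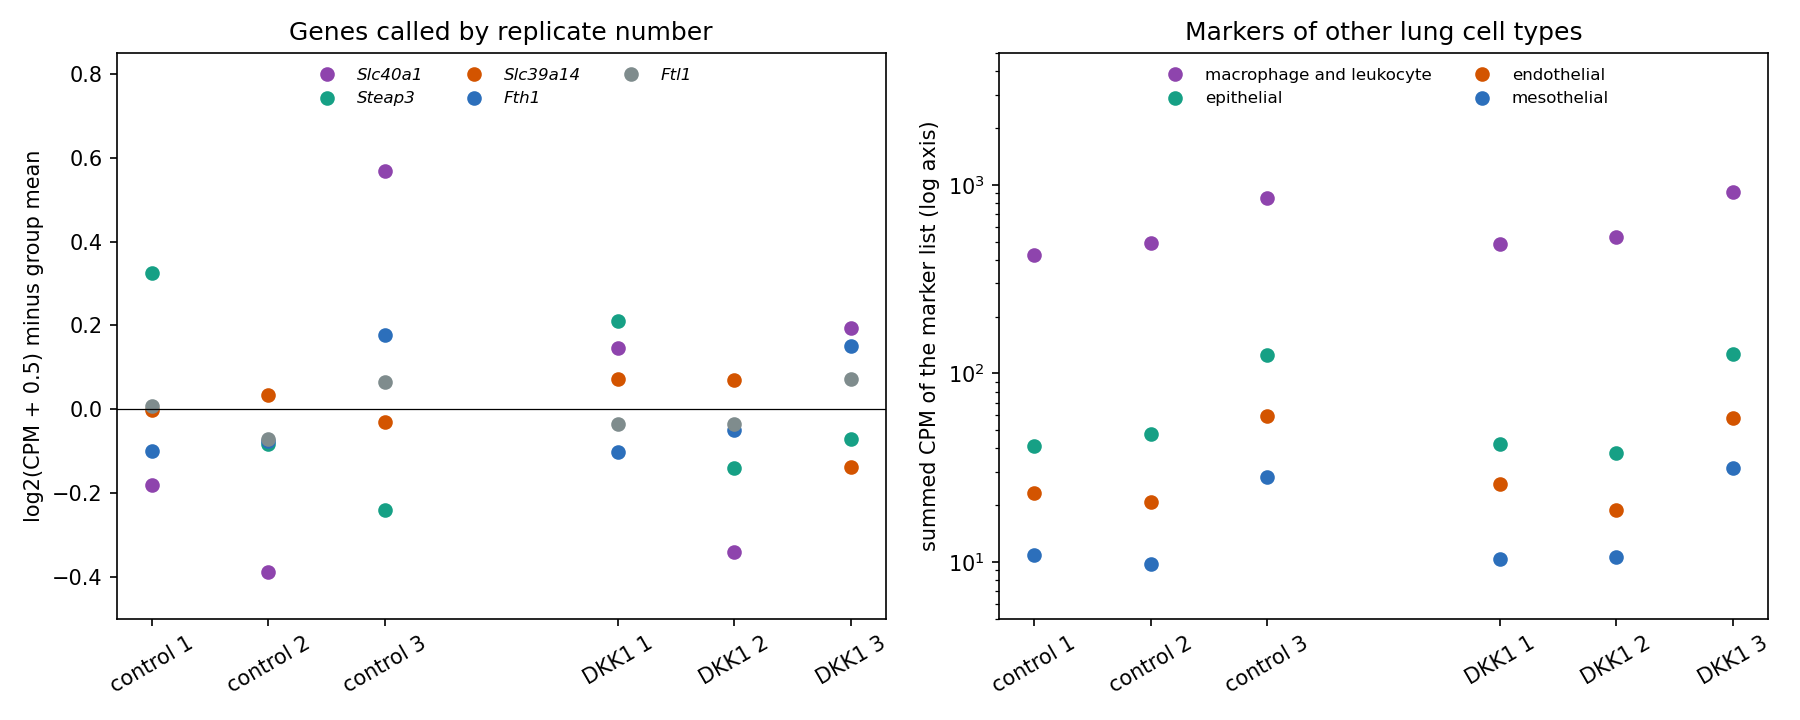
Left, log2(CPM + 0.5) of the 5 genes called between replicate numbers, each minus the mean of its group, in the 6 libraries. Right, summed CPM of markers of other lung cell types on a log axis; libraries 3 of both groups stand above libraries 1 and 2 for all 4 lists shown.

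The rest of the pathway was described with 91 further genes of iron, heme, zinc and copper handling, listed by role with earlier results of these libraries known, of which 76 were tested. Counts of calls in this list are therefore a description and no independent evidence about it. In the edgeR fit of all genes 3 of the 76 rose (3.95%, against 0.697% of all tested genes) and 0 fell. The 3 include Lcn2, which passed the filter on low counts through its DKK1 libraries. With at least 10 counts in every sample Lcn2 was not tested, and 2 of the list were called higher, against 100 over all genes. At an unadjusted p under 0.05 in the edgeR fit without the block, 13 of the 76 were higher and 1 lower. Over all 14635 tested genes 831 (5.68%) were higher and 713 (4.87%) lower. DESeq2 called 4 of the list higher and 0 lower, against 204 higher and 85 lower over all genes. With the block 10 rose (13.2%, against 4.96%) and 0 fell (4.46% of all tested genes). The median log2 fold change of the 76 was 0.03, and that of all tested genes was −0.00091. The counts of higher genes without the block were 1 when control replicate 1, control replicate 2 or DKK1 replicate 1 was left out. Over all tested genes, 45, 29 and 39 were called higher in those fits, against 102 with all libraries.

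The 3 were Cp, Lcn2 and Alas1. Cp, ceruloplasmin, the copper ferroxidase that acts with ferroportin, was at 16.4, 14.6 and 18.4 CPM in the controls and 44.5, 32.5 and 36.0 CPM with DKK1. It rose by 1.19 ± 0.12 (SE) on the log2 scale (adjusted p = 0.00555), with every DKK1 library above every control, and it was called whichever single library was left out. Lcn2, a secreted protein that binds iron-carrying siderophores, was at 0.0886, 0.283 and 0.397 CPM in the controls and 1.85, 1.84 and 3.99 CPM with DKK1. It rose by 3.26 ± 0.50 (adjusted p = 0.0255). The control levels rest on 2, 8 and 9 counts, the first of them under the smallest number read as signal. The DKK1 libraries held 53, 64 and 92 counts. The call of Lcn2 was lost without control replicate 1 or 2 or without DKK1 replicate 1 or 2 (log2 fold change 2.89 to 3.45, adjusted p from 0.0537 to 0.120). Alas1, the first and rate-limiting enzyme of heme synthesis outside red cells, was at 57.7, 56.2 and 62.4 CPM in the controls and 78.9, 72.2 and 81.2 CPM with DKK1. It rose by 0.39 ± 0.06 (adjusted p = 0.0184). The call of Alas1 was lost without control replicate 1 or 2 or DKK1 replicate 1 (log2 fold change 0.36 to 0.38, adjusted p from 0.0936 to 0.104).

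With the block, 7 more of the list were called higher. Hp, haptoglobin, which binds free hemoglobin, was at 0.886, 1.10 and 2.43 CPM in the controls and 6.91, 3.74 and 5.42 CPM with DKK1, a log2 fold change of 1.87 ± 0.37 (adjusted p = 0.0678, and 0.000198 once the block was added). Fits without the block also called Hp with no filter on low counts (1.87), with DESeq2 (1.87), without control replicate 3 (2.399) and without replicate 3 of both groups (2.39). Slc39a4, a zinc importer, had a log2 fold change of 1.29 ± 0.28 with the block (adjusted p = 0.00934), at 0.389 to 1.02 CPM in the controls and 1.04 to 2.13 CPM with DKK1. The remaining differences were small. Trf, transferrin itself, differed by 0.23 with the block (adjusted p = 0.000602), Slc25a37, the mitochondrial iron importer mitoferrin, by 0.19 (adjusted p = 0.00274), and Heph, the membrane ferroxidase hephaestin, by 0.25 (adjusted p = 0.0443). Fbxl5, which targets iron regulatory proteins for degradation, differed by 0.18 (adjusted p = 0.00547) and Slc39a10, a zinc importer, by 0.15 (adjusted p = 0.0168). The 6 other than Hp were called in no fit without the block. Without the block, the Trf value was 0.09 when DKK1 replicate 1 was left out, 0.10 without control replicate 2 and 0.36 without DKK1 replicate 2, and the Slc25a37 value was 0.11 without DKK1 replicate 1.

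The iron regulatory proteins that bind the stem-loops printed above were called in neither fit. Aco1 had a log2 fold change of −0.05 ± 0.04 (adjusted p = 0.764) and Ireb2 of 0.06 ± 0.03 (adjusted p = 0.616). Ncoa4, the receptor that delivers ferritin to lysosomes, was at −0.02 ± 0.05 (adjusted p = 0.923). Slc39a8, the transporter most similar to ZIP14, was at 0.06 ± 0.15 (adjusted p = 0.948), and Cybrd1, a duodenal ferric reductase, at 0.20 ± 0.36 (adjusted p = 0.915) with mean levels of 0.493 and 0.566 CPM. Hamp, which encodes the hormone hepcidin that removes ferroportin from the membrane, had 0 counts in each control and 2, 0 and 3 counts with DKK1 and was not tested. With 1 library left out, the value of Aco1 ran from −0.08 (without control replicate 3) to −0.02 (without control replicate 2), and that of Cybrd1 from 0.01 (without control replicate 3) to 0.45 (without control replicate 1). The values of Ncoa4 (−0.057 to 0.0030) and Slc39a8 (−0.10 to 0.20) took both signs. Of 11 iron-sulfur cluster genes and 7 copper genes tested, 0 were called by edgeR in either fit, beside the shares called over all tested genes (0.895% without the block; with it, 4.96% higher and 4.46% lower). At an unadjusted p under 0.05 without the block, 0 of the 11 and 1 of the 7 passed, against 10.6% of all tested genes.

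**Figure D4:**
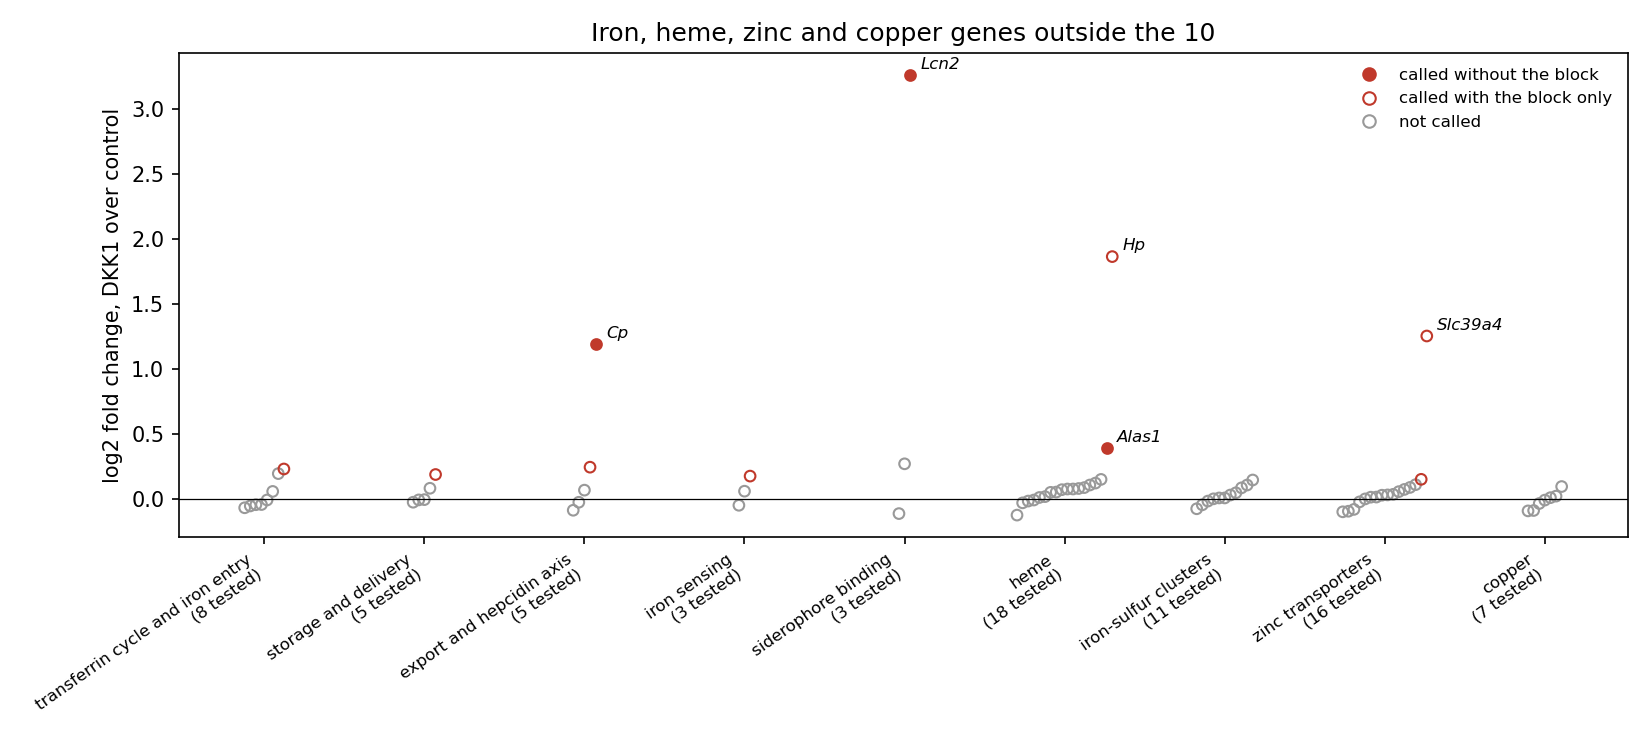
Log2 fold change, DKK1 over control, of the 76 tested pathway genes outside the 10, in 9 classes by role, each point a gene. Filled red points were called without the block (Cp, Lcn2 and Alas1), open red points with the block and not in the unblocked fit of all 6 libraries, and grey points in neither fit.

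The genes whose pattern over the 6 libraries was most like that of Steap4, by Pearson's r of log2(CPM + 0.5) among 13019 genes averaging 1 CPM or more, were Cxcl5 (r = 0.998), Ywhaz (0.994), Ctps (0.993), H3f3b (0.993) and Pgk1 (0.993). The r is a description over 6 points that share 2 groups and their depth, and the 100th gene still had an r of 0.956. Cxcl5, a chemokine that attracts neutrophils, stood at 5.54, 7.78 and 9.76 CPM in the controls and 35.3, 34.3 and 42.2 CPM with DKK1, so that its log2 fold change of 2.27 was close in size to that of Steap4. The other 4 differed far less between the groups, by 0.06 to 0.26.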

How the data were processed

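RNA sequencing of 3 control and 3 DKK1-treated mouse lung fibroblast samples was used. The authors deposited RSEM expected counts per gene. STAR, RSEM, edgeR 4.2.1 and GRCm38/mm10 are named in the submitters' processing notes; annotation release, strandedness and filters are not given in the sources used here. Symbols from a supplied table matched 45143 of 45706 identifiers. Expected counts were rounded to whole numbers, and edgeR 4.0.16 under R 4.3.3 was used (filterByExpr, minimum count 10; TMM; quasi-likelihood test, two-sided; Benjamini-Hochberg over 14635 genes; threshold 0.05). The SE of a log2 fold change is its size over the root of F. CPM uses library totals; floors cover counting error only. The fit without the block was also run on simulated counts. These had the same dispersion for every gene and no difference between replicate numbers, so the run says nothing about the block or replicate effects.

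Members, gene lists, motifs and naming rule were chosen with earlier results of these data known. Named were the 10 genes, pathway genes called with or without the block, 9 pathway genes whatever their values, and the 5 genes most like Steap4. Markers were named only beside results.

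Replicate numbers come from the sample titles. Samples of the same number deviated together from the means of their groups: across genes r was 0.349, 0.335 and 0.498, and for crossed pairs −0.332 to 0.0666, so the block was also fitted. Other alternatives were size factors of DESeq2 1.42.0, library totals, filters, unrounded counts, DESeq2, and each library left out. Leaving out replicate 3 of both groups was added after seeing the data. No 2 libraries of a group agreed within sampling noise (chi-square per degree of freedom 4.90 to 7.63). The 29-base elements come from GENCODE M21, whose transcripts include 98.7% of those in the table, and the promoter from RefSeq; Slc39a14, Slc11a2 and Slc40a1 had no promoter entry.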

Additional observations from a re-analysis of the deposited data

How the results depend on the processing

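Over all tested genes, 131 were called (102 higher and 29 lower). The number was 329 (241 and 88) with no filter on low counts and 129 (100 and 29) with at least 10 counts in every sample. It was 1379 (726 and 653) with the replicate block, 289 (204 and 85) with DESeq2 and 149 (119 and 30) without replicate 3 of both groups. The fits with another filter tested other numbers of genes. Leaving out 1 library gave 36 to 139 (29 to 110 higher, 5 to 29 lower), the lowest without control replicate 2, with 51 without control replicate 1, 44 without DKK1 replicate 1 and 57 without DKK1 replicate 2. Of the 10 genes, 1 was called higher, beside 102 over all tested genes. Brackets in the next sentences give the number called higher over all genes in the same fit. The count was 3 with no filter (241) and 0 with at least 10 counts in every sample (100), where Steap4 was not tested. It was 6 with the replicate block (726), which called 1 lower (653 lower over all genes). It was 2 with DESeq2 (204), 3 without replicate 3 of both groups (119) and 0 to 2 with 1 library left out (29 to 110). Of the other pathway genes, 3 were called higher and 0 lower throughout. The count higher was 10 with the replicate block, 2 with at least 10 counts in every sample (Lcn2 was then not tested) and 1 to 4 with 1 library left out. Their median of 0.03 ranged from 0.01 to 0.04 with 1 library left out. The replicate block changed the call of Steap1, Steap2, Slc39a14, Tfrc, Fth1 and Ftl1 and of no other of the 10. Signs turned for Steap3 (−0.18 to 0.13 with 1 library left out), Slc40a1 (−0.23 to 0.33; 0.0050 with the replicate block; 0.24 without replicate 3 of both groups), Ncoa4 (−0.057 to 0.0030), Slc39a8 (−0.10 to 0.20; −0.032 without replicate 3 of both groups) and Cybrd1 (−0.067 without replicate 3 of both groups). The cause was not tested. Order by level changed for 6 genes with the longest transcripts. Steap4 rests on 8 to 16 counts in the controls, Lcn2 on 2 to 9.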
